A study of Mus musculus with 10 samples.

Results

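The 40 genes described here are read across the nervous system as general markers of neurons and of their synapses: 15 code for cytoskeletal proteins, 7 for RNA-binding proteins, 14 for proteins of synapses and secretory vesicles, and 4 (*Ncam1*, *Myt1l*, *Scn3a* and *Uchl1*) for other neuronal proteins. They were matched by gene symbol and all 40 were found among the 52227 genes of the count table. The cortical hem (CH), a signaling center at the dorsal midline of the embryonic telencephalon, was cut out by laser capture at embryonic day (e) 13.5 from 5 WT and 5 *Lmx1a*-/- mouse embryos, and the sections of 1 embryo made 1 library. *Lmx1a*-/- embryos were homozygous for *drJ* (dreherJ), a point mutation after which an inactive protein is still made. Embryos of both genotypes were on a mixed C57Bl6, FVB and CD1 background, and all 40 genes passed the filter of at least 10 counts in at least 3 libraries.

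Neurons begin to make many, but not all, of these proteins when they leave the cell cycle. Tubulins, microtubule-binding proteins, stathmins, neurofilaments and ankyrins build and order the axon and dendrites. The Elavl, Rbfox and Celf proteins bind transcripts and steer their splicing, stability and translation. SNARE proteins, synaptotagmins and complexins release vesicles at synapses, and granins load dense-core vesicles. In non-neuronal cells and progenitors many genes of synapses and axons are kept low by the repressor REST, which binds an element named RE1. The CH itself holds radial glial progenitors and the Cajal-Retzius (CR) cells born from them, so that a tissue piece of it mixes cells before and after neuronal differentiation.

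Promoter stretches of 4 members are printed because they hold the letter runs searched here, which were the left and right parts of RE1 (TTCAGCACC and GGACAGC), the E-box CAGCTG that proneural factors bind, and TAATTA, the core that many homeodomain proteins bind. Both strands were searched in RefSeq windows of GRCm38.p6 that run from 250 bases before a start to 50 after it. For 25 of the 40 members a window was matched, 47 windows in all. Capitals mark the runs found. *Scg2* carried both parts of RE1 on the strand opposite to the gene, with no base between them. Whether they form a working RE1 was not tested. The *Scg2* stretch, chr1:79440025-79440054 (minus strand), lies within the annotated first exon of the gene. The *Ina* stretch, chr19:47014511-47014680 (plus strand), lies outside exons and inside the span of *Nt5c2*. Those of *Ank2*, chr3:126998465-126998630 (minus strand), and *Elavl4*, chr4:110287540-110287744 (minus strand), precede inner start sites and fall in no exon of these genes.
Scg2: ctataagccgaggaGCTGTCCGGTGCTGAA
Ina: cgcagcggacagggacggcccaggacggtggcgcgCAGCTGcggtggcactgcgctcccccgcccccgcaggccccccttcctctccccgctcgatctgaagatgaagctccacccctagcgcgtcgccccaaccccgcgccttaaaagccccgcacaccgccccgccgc
Ank2: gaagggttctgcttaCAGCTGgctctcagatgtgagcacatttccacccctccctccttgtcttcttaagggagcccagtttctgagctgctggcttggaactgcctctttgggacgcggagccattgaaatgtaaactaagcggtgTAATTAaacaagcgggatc
Elavl4: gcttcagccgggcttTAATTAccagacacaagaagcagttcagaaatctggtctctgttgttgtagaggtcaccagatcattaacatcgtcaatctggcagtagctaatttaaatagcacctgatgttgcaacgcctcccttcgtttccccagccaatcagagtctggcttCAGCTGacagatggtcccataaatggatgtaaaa

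The E-box CAGCTG was found in 17 of the 47 member windows (36.2%), from 13 members, and in 16.3% of all 32851 windows. TAATTA occurred in 6 member windows (12.8%) of *Ank2*, *Dcx*, *Elavl4* and *Myt1l*, and in 5.29% of all windows. Only *Scg2* and *Nlgn1* held TTCAGCACC (4.26% of member windows, 0.371% of all), and GGACAGC stood in 6 member windows (12.8%, against 6.56% of all). GGACAGC and CAGCTG share the letters CAGC, but no run shown overlaps another. Windows of 1 gene can overlap, so that 1 run may count more than once, and a match of letters shows no binding.

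Between 19145952 and 36462780 reads per library were counted on genes, of which mitochondrial genes took 20.6% to 27.6%. *Xist*, the RNA of the inactive X chromosome, stood at 4515 to 5127 CPM before scaling in WT embryos 2 to 5, at 0.982 in WT embryo 1, and at 0.157 to 1.10 in the *Lmx1a*-/- embryos. Sex and genotype were therefore separated by WT embryo 1 alone. *Lmx1a* RNA, which the *drJ* mutation does not remove, was 71.2 ± 18.2 normalized CPM in WT and 114 ± 21 in *Lmx1a*-/- CH (edgeR quasi-likelihood FDR 0.0658). Of 11 CR cell markers tested, 4 were called lower (2.29% of all genes) and 1 higher (1.72%) in *Lmx1a*-/- CH. Among those lower were *Reln* and *Trp73*, by log2 fold changes of -1.06 (edgeR quasi-likelihood FDR 0.0308) and -0.85 (FDR 0.0208). The one higher was *Lhx5* (1.86, FDR 0.0324 in the same test). Not called were *Ebf2* (-0.09), *Ebf3* (0.07) and *Nhlh2* (0.10). *Ndnf* (-1.33, FDR 0.114), *Cacna2d2* (-0.56, FDR 0.113) and *Eomes* (-0.51, FDR 0.129) were not called either. Unadjusted p of this test was under 0.05 for 7 lower and 1 higher, and for 16.4% of all genes. The likelihood ratio and exact tests of edgeR and DESeq2 each called 8 of the list (6.28%, 6.06% and 9.89% of all genes).

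The question put to the 40 genes was whether the neuronal program of the CH differed without active Lmx1a. Levels are TMM-scaled CPM (reads of a gene per 1e6 reads of its library, normalized CPM), given as mean ± SD over embryos, and a positive log2 fold change means a higher level in *Lmx1a*-/- CH. None of the 40 genes passed an FDR of 0.1 in edgeR's quasi-likelihood test, 0 higher and 0 lower. Over all 21664 genes tested 870 (4.02%) passed, 373 (1.72%) higher and 497 (2.29%) lower. Without adjustment 11 of the 40 had a p under 0.05, 9 higher (*Ank2*, *Cplx2*, *Nlgn1*, *Ina*, *Ncam1*, *Syt4*, *Stmn2*, *Snap25* and *Mapt*) and 2 lower (*Vamp2* and *Rbfox2*), where 16.4% of all genes did. The likelihood ratio and exact tests of edgeR each called 2 members, *Ank2* and *Cplx2*, where they called 6.28% and 6.06% of all genes. The Wald test of DESeq2 called 6 members and 9.89% of the genes it gave an adjusted p, with *Ank2*, *Cplx2*, *Mapt*, *Nlgn1* and *Ncam1* higher and *Vamp2* lower.

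In none of the 40 genes did all libraries of one genotype lie above all of the other, which happened in 4.44% of all genes tested. Log2 fold changes were above 0 in 30 of the 40 members and in 49.4% of all genes. Their median was 0.26 over the members and -0.00494 over all genes. By class the median was 0.63 for the 14 synaptic genes (11 above 0), 0.29 for the 15 cytoskeletal genes (12 above 0), 0.09 for the 4 other genes (3 above 0) and 0.02 for the 7 RNA-binding genes (4 above 0). Without *Lmx1a*-/- embryo 5 the synaptic and cytoskeletal medians were 0.38 and 0.15, and without WT embryo 3 they were 0.80 and 0.47. The RNA-binding median lay between -0.15 (without WT embryo 4) and 0.19 (without WT embryo 3), and that of the 4 other genes between -0.04 (without WT embryo 4) and 0.15 (without WT embryo 1). The members were measured in the same libraries, so these counts do not add up independent genes. In tissue pieces, fewer cells of a type and less RNA per cell cannot be told apart.

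**Figure D1:**
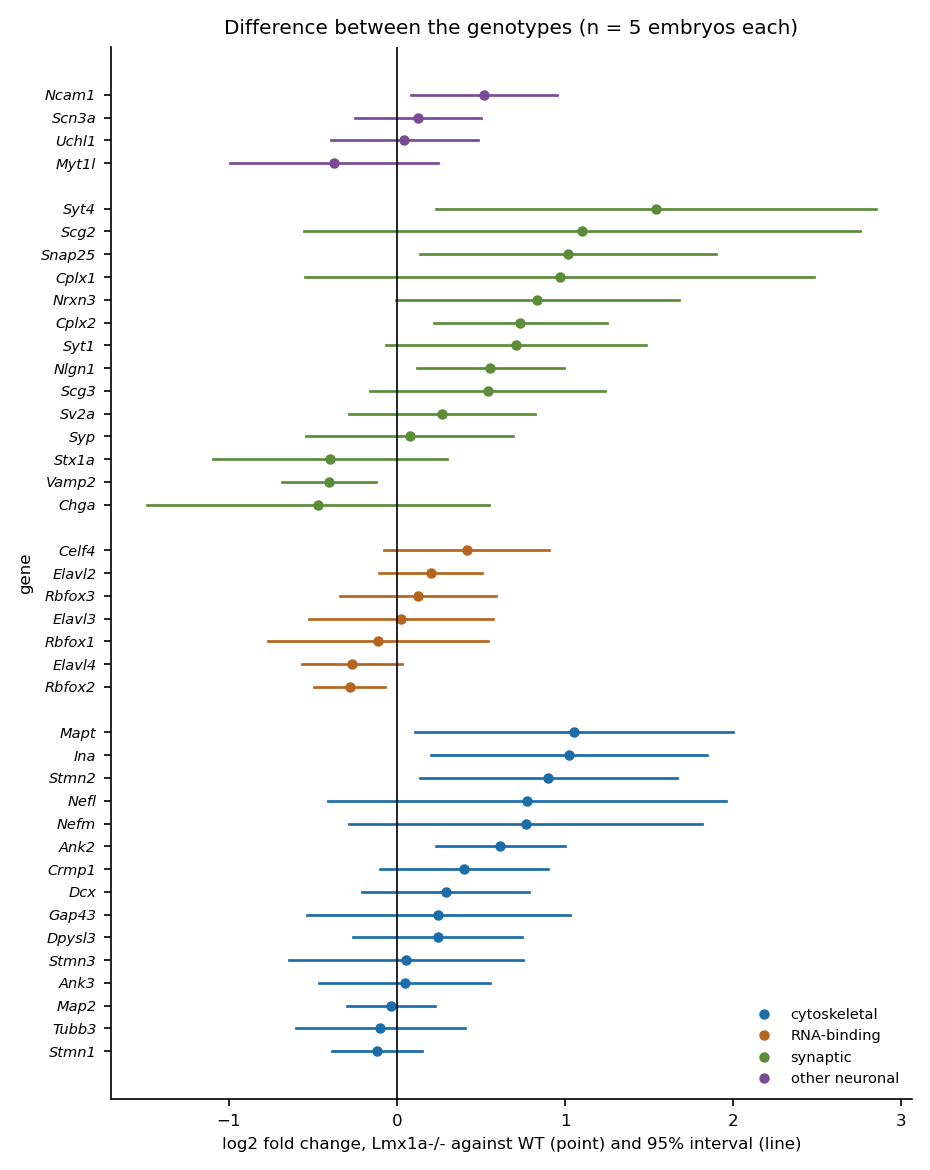
Log2 fold change of each of the 40 genes between *Lmx1a*-/- and WT CH (point) with its 95% interval from edgeR's quasi-likelihood fit (line), by class. Points of 30 genes lie above 0, the synaptic genes spread from -0.47 (*Chga*) to 1.54 (*Syt4*), and the 7 RNA-binding genes stay between -0.28 and 0.41.

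Per kb of exonic length, the members spanned levels from 0.296 CPM per kb (*Scg2*) to 43.5 (*Stmn1*), averaged over genotypes. The highest were *Stmn1*, *Map2* (36.8), *Tubb3* (36.3), *Uchl1* (33.9), *Dpysl3* (31.3) and *Elavl4* (27.5), among which no synaptic gene stood. *Scg3* (7.48) and *Vamp2* (7.46) led the synaptic class. All synaptic genes but *Scg3*, *Vamp2* and *Cplx2* stood below 3 CPM per kb, as did the neurofilament genes *Nefm* (0.684) and *Nefl* (0.555).

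**Figure D2:**
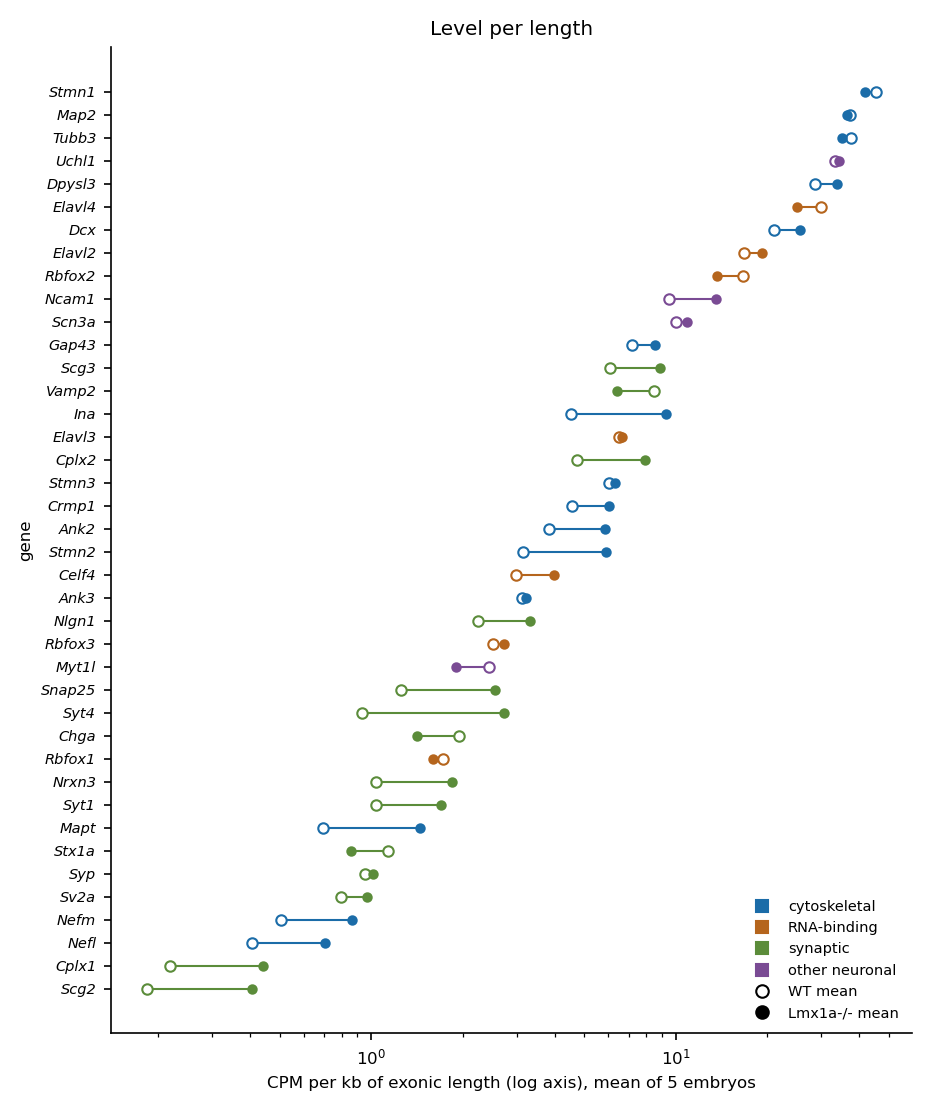
Mean level per kb of exonic length in WT (open circles) and *Lmx1a*-/- CH (filled circles) of each gene on a log axis, colored by class. Structural and RNA-binding genes of young neurons fill the top, from *Stmn1* at 43.5 CPM per kb, and synaptic genes most of the lower part, down to *Scg2* at 0.296.

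Among the cytoskeletal genes, the pair with the highest levels per length, *Stmn1* and *Map2*, had estimates near 0. *Stmn1*, which binds free tubulin, stood at 97.7, 70.2, 107, 85.2 and 74.9 normalized CPM in WT embryos 1 to 5 and at 78.4, 93.4, 78.8, 65.8 and 84.9 in *Lmx1a*-/- embryos 1 to 5. Its log2 fold change was -0.12 (SE 0.12, 95% interval -0.39 to 0.15, edgeR quasi-likelihood FDR 0.691). The microtubule-associated *Map2* stood at 674, 611, 591, 456 and 730 normalized CPM in WT and 616, 703, 534, 504 and 634 in *Lmx1a*-/- CH, or -0.03 on the log2 scale (SE 0.12, 95% interval -0.30 to 0.23, edgeR quasi-likelihood FDR 0.925). The ranges of the genotypes overlapped widely in both genes. The neuronal tubulin *Tubb3* (70.1 ± 20.8 and 65.6 ± 20.8 normalized CPM, log2 fold change -0.10), *Ank3* (109 ± 33.9 and 113 ± 39.3, 0.05) and *Stmn3* (6.87 ± 3.46 and 7.18 ± 2.14, 0.06) also had estimates near 0, with wider intervals (for *Tubb3* -0.60 to 0.41).

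*Ank2*, which anchors membrane proteins to the spectrin skeleton of axons, had the smallest p of the 40 genes. It and the other genes given below in every library, apart from the leading pair of each class, were picked after their values were seen. It stood at 111, 136, 188, 116 and 118 normalized CPM in WT embryos 1 to 5 and at 192, 198, 165, 168 and 302 in *Lmx1a*-/- embryos 1 to 5. Of the WT libraries, that of embryo 3 alone reached into the range of the mutants. The means were 134 ± 31.9 and 205 ± 56.0, the log2 fold change was 0.61 (SE 0.18, 95% interval 0.23 to 1.00), and its edgeR quasi-likelihood FDR of 0.101 just missed the threshold.

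The widest fold changes of the class belonged to genes of axonal filaments and microtubules at lower levels. *Mapt*, the gene of tau, was at 3.56 to 7.94 normalized CPM in WT and from 2.41 (*Lmx1a*-/- embryo 4) to 20.5 (embryo 5) in the mutants, a log2 fold change of 1.05 (95% interval 0.11 to 2.00, edgeR quasi-likelihood FDR 0.249). The mutant libraries alone differed among themselves 8.49-fold. *Ina*, the intermediate filament alpha-internexin, stood at 14.7 ± 6.08 and 30.1 ± 18.8 normalized CPM (1.03, FDR 0.193 in the same test), and *Stmn2*, a stathmin of growth cones, at 17.7 ± 7.46 and 33.1 ± 18.7 (0.90, FDR 0.219). In both, *Lmx1a*-/- embryos 2 and 5 were above every WT embryo and the other 3 mutants were among the WT values. Without embryo 5 the log2 fold changes of *Mapt*, *Ina* and *Stmn2* were 0.70, 0.64 and 0.55.

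*Nefl* (1.37 ± 1.11 and 2.38 ± 1.37 normalized CPM, log2 fold change 0.77) and *Nefm* (2.93 ± 1.35 and 4.99 ± 3.77, 0.77) code for the light and medium neurofilaments. They were scarce, with 8 counts of *Nefl* in WT embryo 5, and their intervals reached from -0.41 to 1.96 and from -0.28 to 1.82. Without *Lmx1a*-/- embryo 5 the estimates were 0.40 and 0.21, and without WT embryo 3 that of *Nefl* was 1.38. Exons of *Nefl* and *Nefm* overlap on opposite strands over 1108 bases and those of *Ina* and *Nt5c2* over 456, and reads there cannot be assigned since the strand setting of the counting is not given. Overlaps of exons with a gene on the opposite strand also concern *Map2*, *Ank2*, *Syt4*, *Syp*, *Nrxn3*, *Nlgn1*, *Ncam1*, *Myt1l* and *Uchl1* (124 to 1229 bases). *Crmp1* (0.40) and *Dpysl3* (0.24), tubulin-binding proteins of the CRMP family, *Dcx* (0.29), the microtubule stabilizer of migrating neurons, and *Gap43* (0.25), a growth cone protein, had log2 fold changes above 0 with intervals that included 0.

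**Figure D3:**
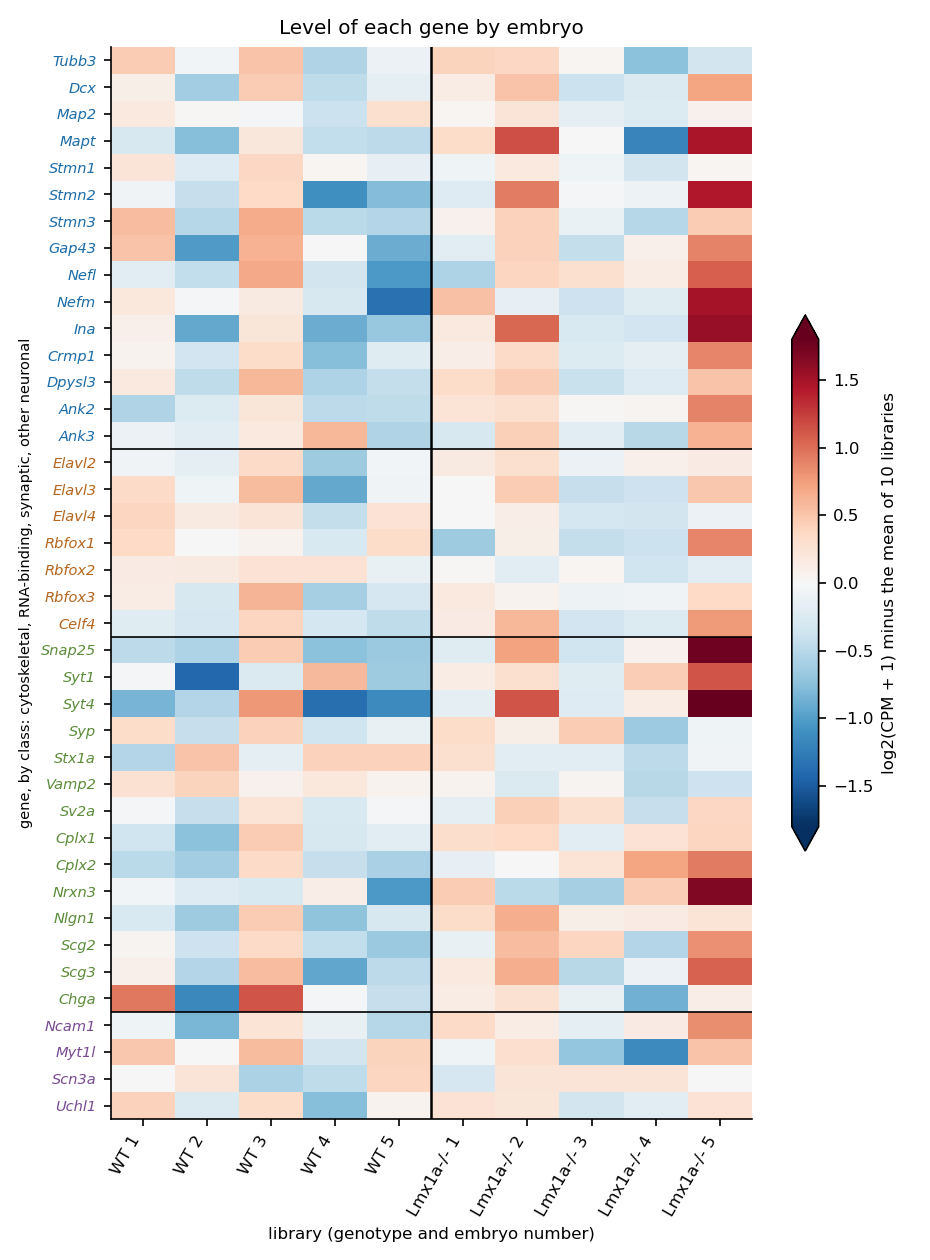
Deviation of each gene's log2(CPM + 1) from its mean over the 10 libraries, with genes in rows by class and embryos in columns. The column of *Lmx1a*-/- embryo 5 is the reddest, with the highest of the 10 values in 20 of the 40 genes, followed by that of WT embryo 3 with 10, and *Vamp2* and *Rbfox2* run the other way.

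RNA-binding genes were close between genotypes as a class, with estimates on both sides of 0. *Elavl4*, a stabilizer of neuronal transcripts, stood at 191, 164, 172, 108 and 176 normalized CPM in WT embryos 1 to 5 and at 145, 159, 117, 116 and 136 in *Lmx1a*-/- embryos 1 to 5. Its log2 fold change was -0.27 (SE 0.14, 95% interval -0.56 to 0.03, edgeR quasi-likelihood FDR 0.359), and WT embryo 4 was the lowest of all libraries. Its relative *Elavl2* stood at 141, 131, 187, 94 and 142 in WT and 165, 179, 136, 156 and 163 in *Lmx1a*-/- CH, a log2 fold change of 0.20 (SE 0.14, 95% interval -0.10 to 0.51, edgeR quasi-likelihood FDR 0.525). Here too the genotypes overlapped.

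Within a library, the balance of these relatives did not overlap between genotypes. The log2 ratio of *Elavl2* to *Elavl4*, with 1 CPM added to each, was -0.44, -0.32, 0.12, -0.20 and -0.31 in WT embryos 1 to 5 and 0.18, 0.17, 0.21, 0.43 and 0.26 in *Lmx1a*-/- embryos 1 to 5. The means were -0.23 ± 0.21 and 0.25 ± 0.10. It was the only one of 17 pairs of related members whose ratios did not overlap, whereas 18 of all 780 pairs of members (2.31%) did not, and the pair was picked after seeing its values, so no test is given. *Elavl3* (44.8 ± 16 and 45.7 ± 13.9 normalized CPM), the remaining neuronal Elavl gene, had a log2 fold change of 0.02 (95% interval -0.52 to 0.57).

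**Figure D4:**
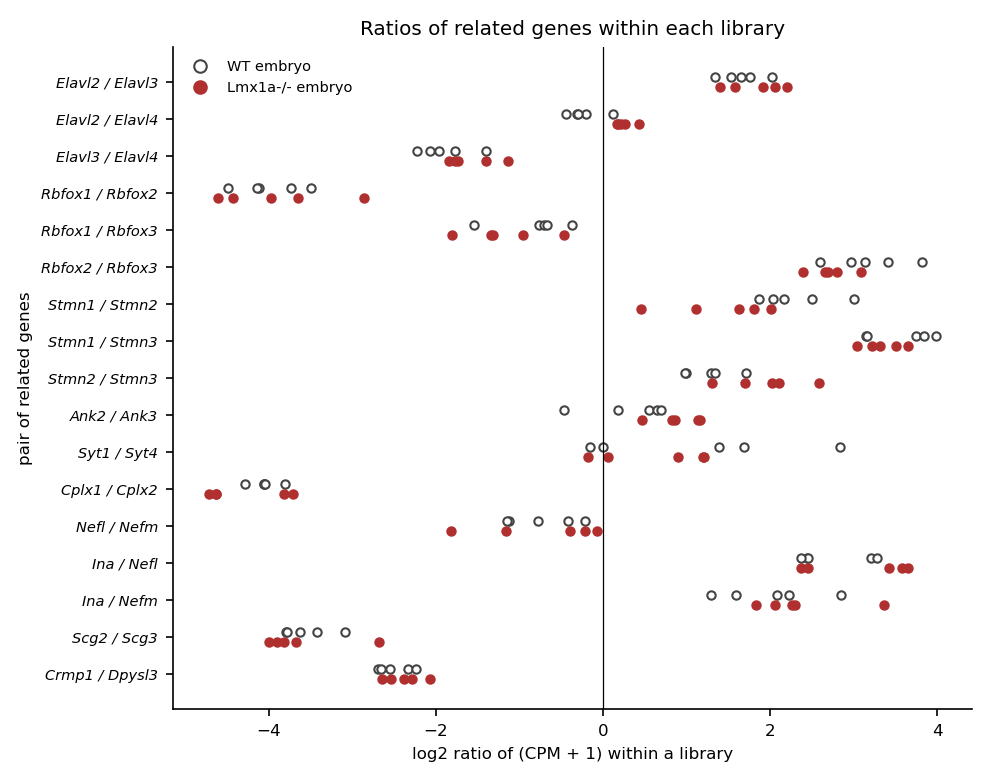
Log2 ratio of (CPM + 1) between related members within each library, with WT embryos as open and *Lmx1a*-/- embryos as filled circles. The circles of the genotypes are interleaved in 16 of the 17 pairs, and for *Elavl2* / *Elavl4* the mutant circles (0.17 to 0.43) lie right of the WT circles (-0.44 to 0.12).

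*Rbfox2*, a splicing regulator also made outside neurons, stood at 135, 136, 146, 146 and 111 normalized CPM in WT embryos 1 to 5 and at 123, 106, 125, 94.7 and 105 in *Lmx1a*-/- embryos 1 to 5. Only WT embryo 5 was inside the mutant range. Its log2 fold change was -0.28 (SE 0.10, 95% interval -0.49 to -0.07) with an edgeR quasi-likelihood FDR of 0.169. Its neuronal relatives *Rbfox1* (7.59 ± 1.51 and 7.03 ± 3.89, log2 fold change -0.11) and *Rbfox3* (14.6 ± 5.49 and 15.9 ± 2.20, 0.12), which codes for the NeuN antigen, and *Celf4* (25.6 ± 6.83 and 34.2 ± 11.9, 0.41), a translation and splicing regulator, had intervals that included 0.

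Synaptic genes had the largest median fold change of the classes. The mean of the cytoskeletal class varied more between embryos (SD 0.38 in WT and 0.45 in *Lmx1a*-/- CH) than that of the synaptic class (0.33 and 0.34). Gene by gene, the synaptic class had the highest median variation between embryos in edgeR's fit (38.4%). Of the pair with the highest levels per length, *Scg3*, a granin of dense-core vesicles, stood at 20.0, 12.7, 28.0, 9.29 and 13.2 normalized CPM in WT embryos 1 to 5 and at 21.3, 29.9, 12.9, 17.2 and 40.1 in *Lmx1a*-/- embryos 1 to 5. The genotypes overlapped over most of their ranges (log2 fold change 0.54, SE 0.32, 95% interval -0.16 to 1.24, edgeR quasi-likelihood FDR 0.443). *Vamp2*, the SNARE of the synaptic vesicle, was at 34.2, 37.0, 29.5, 32.0 and 29.3 in WT and at 29.3, 23.2, 29.0, 19.6 and 21.4 in *Lmx1a*-/- CH. The ranges met at 29.3, and the log2 fold change was -0.40 (SE 0.13, 95% interval -0.68 to -0.12, edgeR quasi-likelihood FDR 0.136). *Vamp2* was the one synaptic gene with an interval wholly below 0.

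Of the other genes of the release complex, *Snap25* and *Cplx2* had estimates above 0 and *Stx1a* below 0. The SNARE *Snap25* stood at 7.61, 7.08, 15.3, 6.12 and 6.46 normalized CPM in WT embryos 1 to 5 and 9.24, 18.7, 8.31, 11.5 and 39.0 in *Lmx1a*-/- embryos 1 to 5 (log2 fold change 1.02, 95% interval 0.14 to 1.90, edgeR quasi-likelihood FDR 0.227). *Cplx2*, a complexin that clamps SNARE complexes, was at 20.6, 18.5, 37.4, 21.5 and 19.1 in WT and 26.0, 29.3, 34.7, 48.4 and 56.5 in *Lmx1a*-/- CH (0.73, SE 0.24, 95% interval 0.22 to 1.25, edgeR quasi-likelihood FDR 0.138). In both genes WT embryo 3 was the only WT library within the mutant range. The plasma membrane SNARE *Stx1a* was at 3.03 ± 1.15 and 2.29 ± 0.653 normalized CPM, a log2 fold change of -0.40 (95% interval -1.09 to 0.30).

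*Syt4*, a synaptotagmin of dense-core vesicles, had the largest fold change of the 40 genes. It stood at 2.39, 3.20, 9.41, 1.35 and 1.74 normalized CPM in WT embryos 1 to 5 and at 4.36, 12.2, 4.16, 5.65 and 27.0 in *Lmx1a*-/- embryos 1 to 5. The log2 fold change was 1.54 (SE 0.61, 95% interval 0.23 to 2.85, edgeR quasi-likelihood FDR 0.219), and the value of *Lmx1a*-/- embryo 5 was 6.49 times that of the lowest mutant. Without that embryo the log2 fold change was 0.84, and without WT embryo 3 it was 2.28. *Snap25* likewise had 0.48 without *Lmx1a*-/- embryo 5. *Syt1*, the calcium sensor of fast release, had a log2 fold change of 0.71 (8.66 ± 4.68 and 14.1 ± 5.73 normalized CPM, 95% interval -0.07 to 1.48).

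*Nlgn1*, a postsynaptic adhesion protein, was at 29.2, 22.5, 49.1, 21.1 and 28.9 normalized CPM in WT embryos 1 to 5 and 45.2, 56.5, 38.4, 39.5 and 42.6 in *Lmx1a*-/- embryos 1 to 5. WT embryo 3 again fell among the mutants (log2 fold change 0.56, SE 0.20, 95% interval 0.12 to 0.99, edgeR quasi-likelihood FDR 0.185). Exons of *Nlgn1* share 1229 bases with a gene on the opposite strand, A830092H15Rik. The presynaptic *Nrxn3*, a member of the neurexins that bind neuroligins, stood at 13 ± 3.71 and 23.2 ± 16.9, with 51.7 in *Lmx1a*-/- embryo 5 and 9.98 to 21.8 in the other mutants (log2 fold change 0.83, 95% interval -0.01 to 1.68, and 0.31 without embryo 5).

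The vesicle membrane proteins *Syp* (4.98 ± 1.62 and 5.27 ± 1.70 normalized CPM, log2 fold change 0.08) and *Sv2a* (3.70 ± 0.823 and 4.48 ± 1.31, 0.27) had estimates closer to 0. *Chga*, a granin, was at 5.36 ± 3.84 and 3.90 ± 1.3 (-0.47, 95% interval -1.49 to 0.55). *Cplx1* and *Scg2* had too few counts for more than a wide interval. *Cplx1* had between 0 and 44 counts per library, and 0 counts in WT embryo 2 allow up to 0.133 CPM before scaling by the limit of 3 counts (log2 fold change 0.97, 95% interval -0.55 to 2.48). *Scg2* had 1 to 55 counts per library (1.10, -0.55 to 2.76), and such limits cover counting error only.

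Among the 4 other genes, *Uchl1*, a neuronal ubiquitin hydrolase, had values of 72.0, 44.6, 67.9, 31.3 and 56.3 normalized CPM in WT embryos 1 to 5 and 64.5, 62.9, 42.5, 46.4 and 64.8 in *Lmx1a*-/- embryos 1 to 5. The log2 fold change was 0.04 (SE 0.20, 95% interval -0.39 to 0.48, edgeR quasi-likelihood FDR 0.943). The cell adhesion molecule *Ncam1* was at 90.2, 53.6, 113, 86.4 and 66.7 in WT and 121, 104, 85.4, 106 and 170 in *Lmx1a*-/- CH (0.52, SE 0.20, 95% interval 0.08 to 0.95, edgeR quasi-likelihood FDR 0.213). *Scn3a*, a sodium channel of the embryonic brain, had a log2 fold change of 0.13 (124 ± 35.2 and 136 ± 20.7) and *Myt1l*, a zinc finger repressor of non-neuronal genes, one of -0.37 (34.2 ± 8.62 and 26.5 ± 12.0), both with intervals across 0.

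Embryos of 1 genotype differed from each other across the whole set. WT embryo 3 had the highest WT level in 28 of the 40 genes and *Lmx1a*-/- embryo 5 the highest mutant level in 27. Of all 10 libraries, that of *Lmx1a*-/- embryo 5 was highest for 20 genes and that of WT embryo 3 for 10. With WT embryo 3 left out, the libraries of 5 members no longer overlapped (*Ank2*, *Snap25*, *Syt4*, *Cplx2* and *Nlgn1*, all higher in *Lmx1a*-/- CH), where 6.7% of all genes did not overlap. Each other embryo left out gave 0 to 2 such members, and 5.54% to 7.32% of all genes. With WT embryo 3 left out, edgeR's quasi-likelihood test called 4 members, *Ank2*, *Syt4*, *Cplx2* and *Nlgn1*, all higher, and 4.67% of all genes. With *Lmx1a*-/- embryo 5 left out it called 0 members and 2.55% of all genes, and 5 members had an unadjusted p under 0.05, as did 13.9% of all genes.

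The biological coefficient of variation that edgeR fitted had a median of 29.5% over the 40 genes, 38.4% over the synaptic genes, 28.9% over all genes tested and 23.7% over the 17732 genes tested within the members' range of mean level. Mean log2(CPM + 1) of the synaptic class was 2.91 ± 0.33 in WT and 3.30 ± 0.34 in *Lmx1a*-/- CH, and that of the cytoskeletal class 5.07 ± 0.38 and 5.41 ± 0.45. Subtracted within each library, the synaptic class lay below the cytoskeletal class by nearly the same amount in both genotypes (-2.15 ± 0.12 and -2.11 ± 0.14). For the RNA-binding class minus the cytoskeletal class the values were 0.35, 0.63, 0.27, 0.28 and 0.73 in WT embryos 1 to 5 and 0.19, 0.03, 0.20, 0.35 and -0.17 in *Lmx1a*-/- embryos 1 to 5, which overlap (0.45 ± 0.21 and 0.12 ± 0.20).

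**Figure D5:**
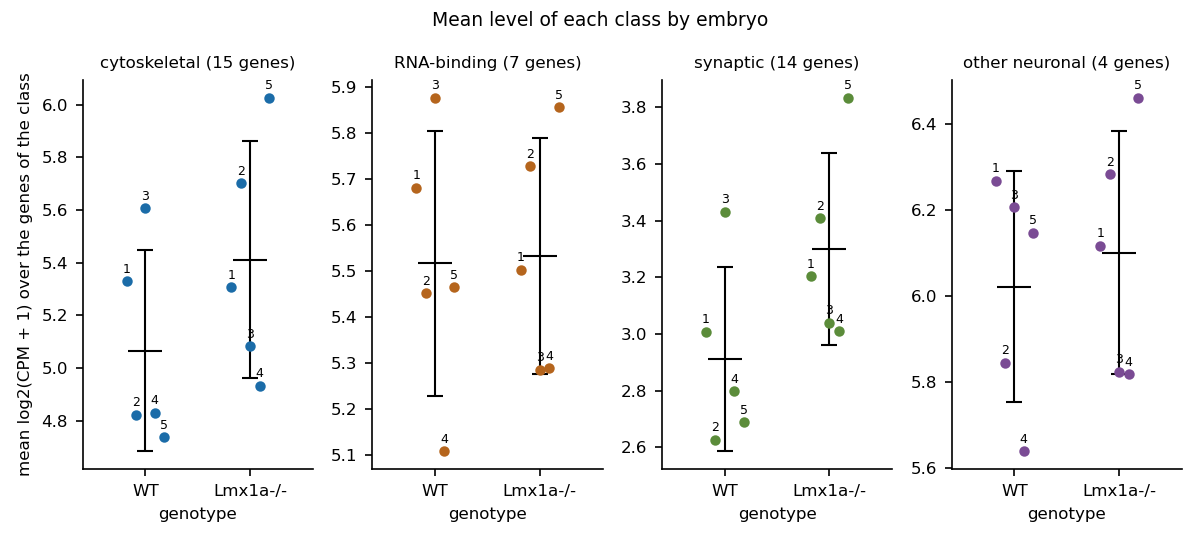
Mean log2(CPM + 1) over the genes of each class, by embryo (numbered points), with mean ± SD over 5 embryos as bars; each panel has its own vertical scale. WT embryo 3 and *Lmx1a*-/- embryo 5 have the highest values of their genotype in the cytoskeletal (5.61 and 6.03), RNA-binding (5.88 and 5.86) and synaptic (3.43 and 3.83) panels.

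Markers of the cell types that the captured pieces could hold also differed by embryo. Their part in the members' values was not tested. Markers called are to be read against the 1.72% of all genes called higher and the 2.29% called lower by edgeR's quasi-likelihood test. The summed level of 10 projection neuron markers was 1589 to 2524 normalized CPM in WT, highest in embryo 3, and 2072 to 2830 in *Lmx1a*-/- CH, with *Fezf2* and *Sox5* higher by the same test. The 10 markers of GABAergic interneurons summed to 31.0 to 77.0 in WT, with 31.0 in embryo 3, and to 37.3 to 211 in *Lmx1a*-/- CH, where embryo 5 had the 211 and *Dlx5* was called higher.

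The 12 CR cell markers, which mark neurons born in the hem, summed to 469 to 682 in WT and 310 to 424 in *Lmx1a*-/- CH, without overlap. The authors had already reported *Reln*, *Trp73*, *Lhx1*, *Car10*, *Cacna2d2* and *Eomes* (*Tbr2*) as lower and *Lhx5* as higher in these same data. The sum is therefore no independent measure of CR cells. Of the 11 CR markers tested, 4 were called lower (2.29% of all genes) and 1, *Lhx5*, higher (1.72%). Radial glial and neuroepithelial markers (12, with the cell cycle genes *Mki67* and *Top2a* among them) summed to 3797 to 4968 and 4930 to 6155. Only 1 was called, *Vim*, which was higher (671 ± 121 and 1223 ± 79.6 normalized CPM). Log2 fold changes of the 12 ran from -0.14 (*Slc1a3*) to 0.87 (*Vim*), with 10 above 0 and *Sox2* at 0.003. WT embryo 3 also had the lowest sum of 14 hem markers (2286 among 2286 to 4328 in WT, and 2760 to 3896 in the mutants) and of 12 choroid plexus markers (131 among 131 to 480, and 153 to 226), and the highest of 10 mesenchymal markers (946 among 334 to 946, and 253 to 520). Endothelial (25.2 to 89.4 and 23.3 to 62.3), microglial (14.3 to 31.8 and 15.1 to 30.2) and red blood cell markers (632 to 1473 and 267 to 573) had no gene past the threshold of edgeR's quasi-likelihood test, with 1, 1 and 5 genes at an unadjusted p under 0.05, and DESeq2 called 0, 0 and 4. The hem list (14 tested) had 5 genes called lower and 1 higher, which was the mutated gene *Lmx1a* itself. The choroid plexus (11 tested) and mesenchymal (10 tested) lists had 3 lower each. Over all genes, 2.29% were called lower and 1.72% higher. In no list was a gene at 0 in all libraries.

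Other genes of the same roles were listed for context. Of 24 further cytoskeletal genes, 2 were called higher and 0 lower, against 1.72% and 2.29% of all genes tested. Their median log2 fold change was 0.13. *Fez1*, an adaptor of axonal transport, was at 45.2 ± 13 and 77.4 ± 14.5 normalized CPM (edgeR quasi-likelihood FDR 0.0454), and *Map7d2*, a microtubule-associated protein, at 8.22 ± 2.51 and 14.4 ± 2.05 (edgeR quasi-likelihood FDR 0.0834). *Map1b* (3903 ± 585 and 3586 ± 442, log2 fold change -0.12) and *Tuba1a* (573 ± 101 and 618 ± 75.2, 0.11), abundant parts of the young cytoskeleton, were not called.

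Of 19 further RNA-binding genes, 1 was called higher and 2 lower (median -0.08), against 1.72% and 2.29% of all genes tested. *Nova1*, a neuronal splicing factor, stood at 80.8, 69.6, 80.9, 60.2 and 73.5 normalized CPM in WT embryos 1 to 5 and at 145, 150, 95.5, 112 and 120 in *Lmx1a*-/- embryos 1 to 5, with no overlap (edgeR quasi-likelihood FDR 0.00692, log2 fold change 0.77, SE 0.13). *Khdrbs2*, which splices neurexin transcripts, fell from 102.3 ± 26.6 to 54.7 ± 8.66 (edgeR quasi-likelihood FDR 0.0136) and *Celf2*, a relative of *Celf4*, from 495 ± 39.0 to 351 ± 70.5 (edgeR quasi-likelihood FDR 0.0509). *Nova2* (log2 fold change -0.13), *Ptbp2* (0.09) and *Ptbp1* (-0.28, edgeR quasi-likelihood FDR 0.166), the splicing repressor of progenitors, were not called.

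Of 46 further synaptic genes 44 were tested (*Vgf* and *Cplx3* were too low), and their median log2 fold change was 0.15. Of the 44, 3 were called higher and 1 lower, against 1.72% and 2.29% of all genes tested. *Sv2c*, a vesicle protein related to *Sv2a*, was at 4.03, 2.35, 2.53, 3.58 and 3.07 normalized CPM in WT embryos 1 to 5 and 10.01, 9.62, 15.02, 16.6 and 8.14 in *Lmx1a*-/- embryos 1 to 5 (edgeR quasi-likelihood FDR 0.00149, log2 fold change 1.93, SE 0.24). *Syn1*, which tethers vesicles, was at 12.4 ± 2.95 and 23.6 ± 7.63, also without overlap (edgeR quasi-likelihood FDR 0.0514), *Rims2*, of the active zone, at 28.6 ± 6.47 and 45.7 ± 7.36 (FDR 0.0415), and *Syt6* at 7.13 ± 2.27 and 3.62 ± 0.659 (FDR 0.0548).

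None of the 13 genes of the REST complex was called by edgeR's quasi-likelihood test, which called 4.02% of all genes. The likelihood ratio and exact tests of edgeR called 1 (6.28% and 6.06% of all genes) and DESeq2 called 2 (9.89%). Unadjusted p was under 0.05 for 4, and for 16.4% of all genes. Of these 4, *Rcor3* (log2 fold change -0.29, edgeR quasi-likelihood FDR 0.106, no overlap between genotypes) and *Ctdspl* (-0.63, FDR 0.109) were lower. *Hdac2* (0.21) and *Kdm1a* (0.18) were higher. *Rest* itself was at 178 ± 22.8 normalized CPM in WT and 190 ± 16.5 in *Lmx1a*-/- CH (edgeR quasi-likelihood FDR 0.674, log2 fold change 0.09, SE 0.09).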

How the data were processed

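The deposited table holds counts of paired reads per Ensembl gene, neither filtered nor normalized. Per the labels and methods, libraries were made with the SMARTER kit, and the authors used FastQC 0.11.8, Trimmomatic, STAR 2.7.1a on GRCm38 and HTSeq 0.11.2. The strand setting is not given in the sources used here. Exact repeats (281 of 52508 rows) were dropped. A gene had to reach 10 counts in 3 libraries or more. Genotypes were compared with edgeR 4.0.16 (R 4.3.3), by TMM scaling and the quasi-likelihood test, with an FDR under 0.1 by the Benjamini-Hochberg method over all genes tested. SE is the size of the log2 fold change over the square root of F. Exonic lengths and positions are from GENCODE M21. Other settings, among them DESeq2 1.42.0, are in the closing section. Embryos were separate, so p-values measure the spread between embryos, and depth (library totals above) limits scarce genes by counting error. Scripts were tested on simulated data. The members, their classes and the further lists were chosen with earlier results of these data known. Values in every library are given for the pair of each class with the highest level per length. From each further list up to 4 called genes with the smallest p are named, and *Rest*, *Ptbp1*, *Ptbp2*, *Nova1*, *Nova2*, *Syn1*, *Map1b* and *Tuba1a* in any case. Of the genes that the rule names, 1 more is not reported here.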

Additional observations from a re-analysis of the deposited data

Results flagged for a closer look

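Over the 40 genes, 80 groups of 5 embryos were examined for 1 embryo that stood apart from the other 4 by more than 0.71 of the group's range (Dixon's 95% value), and 8 did. Chance flags about 1 in 20 groups, and the genes share their libraries. Of the 8, 5 were in WT embryo 3, with *Celf4* at 37.6 normalized CPM (others 20.5 to 24.3), *Snap25* at 15.3 (6.12 to 7.61), *Syt4* at 9.41 (1.35 to 3.20), *Cplx2* at 37.4 (18.5 to 21.5) and *Nlgn1* at 49.1 (21.1 to 29.2). A further pair were in *Lmx1a*-/- embryo 5, with *Ank2* at 302 (165 to 198) and *Nrxn3* at 51.7 (9.98 to 21.8). *Cplx1* stood at 0.443 in *Lmx1a*-/- embryo 3 (0.997 to 1.18), from 13 counts.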

How the results depend on the processing

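Of 1080 values of single members under 27 other settings, 66 changed sign, none of them past the threshold, and 23 of the 40 members kept their direction throughout. An FDR of 0.05, counted among the 27, keeps the main estimates, so no sign could change there. Robust dispersions also left the members' estimates as they were. Members called higher numbered 2 by the likelihood ratio test (805 genes lower over all genes) and 2 by the exact test (772 lower). DESeq2 called 5 higher and 1 lower (976 genes lower, 790 higher). *Ank2* alone was called, as higher, with legacy=FALSE (5.46% of all genes called), upper quartile scaling (4.18%) or library size only (3.96%). The same held with no filter on low counts (2.43%) or mitochondrial genes left out (4.06%). With *Xist* as a covariate 30 genes were lower and 6 higher over all genes and the median of the RNA-binding class was -0.27. With the mean of the choroid plexus list 25 were lower and 36 higher, and the medians were -0.28 (RNA-binding) and 0.030 (synaptic). With WT embryo 1 and the mutants only, 86 were lower and 44 higher and the RNA-binding median was -0.28. These covariates run with genotype (r = -0.823 and -0.76). At an FDR of 0.05, 251 were lower and 197 higher. The cause of these changes was not tested.

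Leaving out each embryo in turn gave 0 to 4 members higher and 0 to 1 lower (261 to 604 genes lower and 190 to 455 higher over all genes). The 4, without WT embryo 3 (4.67% of all genes called), were *Ank2*, *Syt4*, *Cplx2* and *Nlgn1*. They were also called with *Lmx1a*-/- embryo 5 left out as well, a setting chosen after seeing the data (4 higher, 3.27% of all genes called). *Cplx2* was called higher without *Lmx1a*-/- embryo 1 (4.19% of all genes called), *Ank2* without embryo 3 (4.96%) and *Mapt* without embryo 4 (2.11%). Called lower were *Elavl4* without WT embryo 4 (2.98%), *Rbfox2* without WT embryo 5 (3.79%) and *Vamp2* without *Lmx1a*-/- embryo 1 or 3. The median over the members ranged from 0.17 (without *Lmx1a*-/- embryo 5) to 0.46 (without WT embryo 3).

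Embryo numbers are shared between genotypes in the labels, but same-numbered embryos did not deviate together (correlations -0.155 to 0.0416, and 0 of 5 WT embryos best with their own number). With the number as a replicate block 248 genes were higher over all genes, and 0 members and 2.77% of all genes were called.

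Log2 fold changes of other sign than in the report were, with legacy=FALSE, -0.034 (*Stmn3*) and -0.00274 (*Elavl3*). With *Xist* they were -0.54 (*Stmn3*), -0.33 (*Gap43*), -0.025 (*Dpysl3*), -0.31 (*Elavl3*), -0.057 (*Rbfox3*), -0.31 (*Syp*), 0.70 (*Stx1a*) and -0.38 (*Uchl1*). With the choroid plexus mean they were -0.14 (*Dcx*), 0.00656 (*Map2*), -0.45 (*Stmn3*), -0.31 (*Gap43*), -0.28 (*Dpysl3*), -0.23 (*Ank3*), -0.10 (*Elavl2*), -0.31 (*Elavl3*), 0.11 (*Rbfox1*), -0.28 (*Rbfox3*), -0.034 (*Celf4*), -0.19 (*Syp*), -0.31 (*Cplx1*), -0.036 (*Nlgn1*) and -0.17 (*Uchl1*). With WT embryo 1 and the mutants only they were -0.51 (*Stmn3*), -0.31 (*Gap43*), -0.000257 (*Dpysl3*), -0.28 (*Elavl3*), -0.051 (*Rbfox3*), -0.30 (*Syp*), 0.65 (*Stx1a*) and -0.36 (*Uchl1*), and without WT embryo 3 and *Lmx1a*-/- embryo 5, 0.10 (*Tubb3*) and -0.10 (*Ank3*). Over the embryos left out, the estimates ranged from -0.23 to 0.041 (*Tubb3*), -0.13 to 0.032 (*Map2*), -0.081 to 0.30 (*Stmn3*), -0.13 to 0.22 (*Ank3*), -0.15 to 0.19 (*Elavl3*), -0.064 to 0.24 (*Syp*), -0.11 to 0.16 (*Uchl1*), -0.00345 to 0.36 (*Rbfox3*) and -0.49 to 0.031 (*Rbfox1*).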
